A study of Mus musculus with 6 samples.

Results

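The replication-dependent histone genes are the small, mostly intronless genes that supply the bulk of the H1, H2A, H2B, H3 and H4 proteins while DNA is copied. They were taken as the genes whose symbols begin with Hist1h to Hist4h, or with H1f, H2ac, H2bc, H3c or H4c followed by a digit, which gave 66 of the 19378 genes listed over the 6 sections. Of these, 10 were H1 genes, 16 H2A, 16 H2B, 12 H3 and 12 H4. The pattern also took in 5 H1 genes that are not replication-dependent: H1f0, H1f6, H1f7, H1f8 and H1f10. By the RefSeq annotation, 52 members lie on chromosome 13, in the main histone cluster, 10 on chromosome 3, and 2 each on chromosomes 15 and 6, these last 4 being linker histone genes.

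Replication-dependent histone genes sit in clusters and are transcribed together in S phase, under the cyclin E-CDK2 substrate NPAT. Their mRNAs carry no poly(A) tail and end instead at a stem-loop that the protein SLBP binds and that the U7 particle helps to cut. H2A and H2B genes are often arranged as divergent pairs around one shared promoter. In chromatin, promoters in use carry H3K4me3, promoters and enhancers in use carry H3K27ac, and Polycomb places H3K27me3 on genes that it silences.

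Each mark was mapped by position in mouse tissue, in 1 section per group. The groups were wild-type embryos at E11.5 profiled for H3K4me3, H3K27ac and H3K27me3 in separate 16 µm sections of whole embryo, wild-type adult brain profiled for H3K4me3 in a 20 µm section, and adult paws profiled for H3K27ac in 4 µm sections. One paw came from a mouse with collagen-induced arthritis at 42 days, an immunisation model of joint disease, and the other from a control labelled 42 days. Both paws were fixed, decalcified and embedded in paraffin, so the fixed paws and the frozen embryo and brain differ in preparation as well as in tissue. Reads per section ran from 403483 in embryo H3K4me3 to 5981684 in the control paw, over 248 to 1200 array spots. No group had more than 1 section, so variation between animals was not measured, differences were not tested, and intervals cover counting error only. A spot covers several cells, so fewer marked cells and less of the mark per cell cannot be told apart. In the brain table, 4 of 7 brain markers were present, with Rbfox3 at 748 reads and Syp at 387. Gfap, Mbp and Gad1 were not among the genes of that table. Col1a1 had 502 reads and Acan 327 in the control paw, but Krt5 had 57, Krt14 60 and the leukocyte gene Ptprc 41. The neuronal genes Rbfox3 and Gad1 had 1126 and 890 reads there, so the marker lists did not by themselves identify the tissue.

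The histone genes were not equally represented in the deposited tables. The control paw held all 66, embryo H3K27ac 64, embryo H3K27me3 61 and embryo H3K4me3 49. The brain table held 15 and the arthritis paw 18. Thus 77.3% of the members had no row in the brain table, against 41.5% of the genes listed over all sections, and 72.7% had none in the arthritis paw, against 42.6%. The members without a row were low in the control paw, with a median of 72 reads for those missing from the brain and 72.5 for those missing from the arthritis paw, against 186 and 177.5 for those present. A gene without a row was not analysed in that section. Present in all sections were 12 members.

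Because H3K4me3 and H3K27ac gather at promoters, the 250 bases upstream of the transcription start are shown for the genes on which the results below turn. H2ac12 and H2bc12 are shown as a divergent pair, H2ac6, H1f6 and H4c3 as members with most reads of H3K27me3, H2ac1 as the member with most reads of embryo H3K4me3, and H1f0 as a linker histone gene outside the clusters. The sequences are RefSeq's, 5′ to 3′ along the gene's strand. Capitals mark the CCAAT box (CCAAT), the octamer bound by POU factors (ATTTGCAT) and the TATA box (TATAAA), each searched on both strands.
H2ac12 (GRCm38.p6 chr13:22035644-22035893, minus strand): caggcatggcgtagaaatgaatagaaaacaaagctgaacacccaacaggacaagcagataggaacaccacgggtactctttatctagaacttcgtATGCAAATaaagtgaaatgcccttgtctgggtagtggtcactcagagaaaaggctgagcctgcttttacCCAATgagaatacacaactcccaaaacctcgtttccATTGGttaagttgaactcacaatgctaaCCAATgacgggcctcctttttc
H2bc12 (GRCm38.p6 chr13:22035571-22035820, plus strand): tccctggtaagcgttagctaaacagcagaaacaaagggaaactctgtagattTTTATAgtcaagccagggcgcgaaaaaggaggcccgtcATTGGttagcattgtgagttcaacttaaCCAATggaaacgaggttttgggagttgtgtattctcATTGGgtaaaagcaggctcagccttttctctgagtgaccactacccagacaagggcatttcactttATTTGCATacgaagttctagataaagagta
H2ac6 (GRCm38.p6 chr13:23683960-23684209, minus strand): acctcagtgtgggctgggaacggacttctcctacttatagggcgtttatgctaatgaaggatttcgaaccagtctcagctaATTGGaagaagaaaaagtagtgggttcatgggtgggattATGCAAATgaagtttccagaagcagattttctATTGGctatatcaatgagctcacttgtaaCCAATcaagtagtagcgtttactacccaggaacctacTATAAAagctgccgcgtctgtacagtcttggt
H1f6 (GRCm38.p6 chr13:23695561-23695810, plus strand): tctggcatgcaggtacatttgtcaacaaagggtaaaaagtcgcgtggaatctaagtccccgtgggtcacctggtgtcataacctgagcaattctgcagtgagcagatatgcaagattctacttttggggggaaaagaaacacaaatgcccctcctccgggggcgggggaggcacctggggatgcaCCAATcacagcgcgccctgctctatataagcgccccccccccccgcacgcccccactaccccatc
H4c3 (GRCm38.p6 chr13:23698459-23698708, minus strand): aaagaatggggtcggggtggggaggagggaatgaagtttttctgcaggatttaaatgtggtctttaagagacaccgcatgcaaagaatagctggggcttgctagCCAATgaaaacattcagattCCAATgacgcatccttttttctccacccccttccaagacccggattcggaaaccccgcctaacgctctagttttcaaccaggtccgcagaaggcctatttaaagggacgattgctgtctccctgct
H2ac1 (GRCm38.p6 chr13:23934187-23934436, plus strand): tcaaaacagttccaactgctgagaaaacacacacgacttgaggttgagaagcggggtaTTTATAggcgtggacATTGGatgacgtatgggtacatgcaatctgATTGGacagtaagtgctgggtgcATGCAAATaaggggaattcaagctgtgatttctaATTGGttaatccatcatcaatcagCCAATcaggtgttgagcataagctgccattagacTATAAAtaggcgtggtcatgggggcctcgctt
H1f0 (GRCm38.p6 chr15:79027962-79028211, plus strand): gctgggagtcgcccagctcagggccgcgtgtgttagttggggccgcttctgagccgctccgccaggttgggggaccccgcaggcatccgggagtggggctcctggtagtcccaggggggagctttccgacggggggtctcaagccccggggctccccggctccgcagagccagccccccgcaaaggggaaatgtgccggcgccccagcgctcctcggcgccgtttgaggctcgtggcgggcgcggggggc
The upstream windows of H2ac12 and H2bc12 overlapped by 177 bases, so they hold the same CCAAT boxes and the same octamer read from opposite strands. The H1f0 window held none of these motifs.

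An upstream window was found for 61 of the 66 members, 62 windows in all, and they were set against the 32851 windows of the same length in the table. CCAAT was in 79.0% of the members' windows and in 33.8% of all windows. It was in 16 of 16 H2A windows and 15 of 15 H2B windows, but in 3 of 11 H4 windows, 8 of 10 H3 windows and 7 of 10 H1 windows. The octamer was in 12 member windows, 19.4%, against 1.60% of all windows. Those 12 belonged to 6 of the 16 H2A windows and 6 of the 15 H2B windows, and no H1, H3 or H4 window held the exact letters. TATAAA was in 43.5% of the members' windows, from 40.0% of those of H1, H2B and H3 to 54.5% of those of H4, against 12.4% of all windows. Windows of divergent pairs can overlap, as those of H2ac12 and H2bc12 do, so a shared motif is counted for each gene of the pair. These are letter matches and not measured binding sites.

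By number of recovered reads, the median histone gene lay below the middle of the section's genes in the embryo sections and the paws and near it in the brain, a position that depends on the recovery of the reads in most sections. Their reads are sums per gene over the section, recovered from the deposited values, and the interval counted for a gene is not stated in the labels. Ranks between genes therefore compare numbers of reads and not levels per base. The median percentile rank of the members was 42.9 in embryo H3K4me3, 35.7 in embryo H3K27ac, 30.0 in embryo H3K27me3, 50.3 in the brain, 32.3 in the control paw and 40.2 in the arthritis paw.

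Above the median gene lay 20 of 49 members in embryo H3K4me3, where 49.8% of all genes did. For embryo H3K27ac it was 22 of 64 members, with 48.5% of all genes, and for embryo H3K27me3 22 of 61, with 49.4% of all genes. In the brain it was 8 of 15, with 50% of all genes. In the paws it was 27 of 66 for the control, with 49.9% of all genes, and 7 of 18 for arthritis, with 50% of all genes. These shares depend on the recovery. From the deposited values the share for embryo H3K27ac was 53.1% in place of 34.4%, and that for embryo H3K27me3 52.5% in place of 36.1%. It was 49.0% in place of 40.8% for embryo H3K4me3, 50% in place of 40.9% for the control paw and 33.3% in place of 53.3% for the brain, and it stayed at 38.9% for the arthritis paw. An alternative counted some members of equal sums, and in some sections of unequal sums, once. In the embryo it left other members of equal sums apart. With it, embryo H3K4me3 had 19 of 36 members, 52.8%, above the median gene. Most members removed lay at or below the median gene, where sums of few reads can be equal without shared reads.

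At the bottom of the ranking the members were more frequent than genes at large in the embryo and the control paw. The lowest 25% by reads held 19 of 49 members in embryo H3K4me3 against 28.5% of all genes, 29 of 64 in embryo H3K27ac against 28%, and 29 of 61 in embryo H3K27me3 against 28.3%. It held 28 of 66 against 25% in the control paw. In the brain it held 3 of 15 against 25.7% and in the arthritis paw 4 of 18 against 25.3%. In the embryo these are genes of very few reads: 19 members of H3K4me3, 25 of H3K27ac and 21 of H3K27me3 had fewer than 5 reads in the whole section. That is 38.8%, 39.1% and 34.4% of the members, beside 34.7%, 23.2% and 19.7% of all genes.

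**Figure D1:**
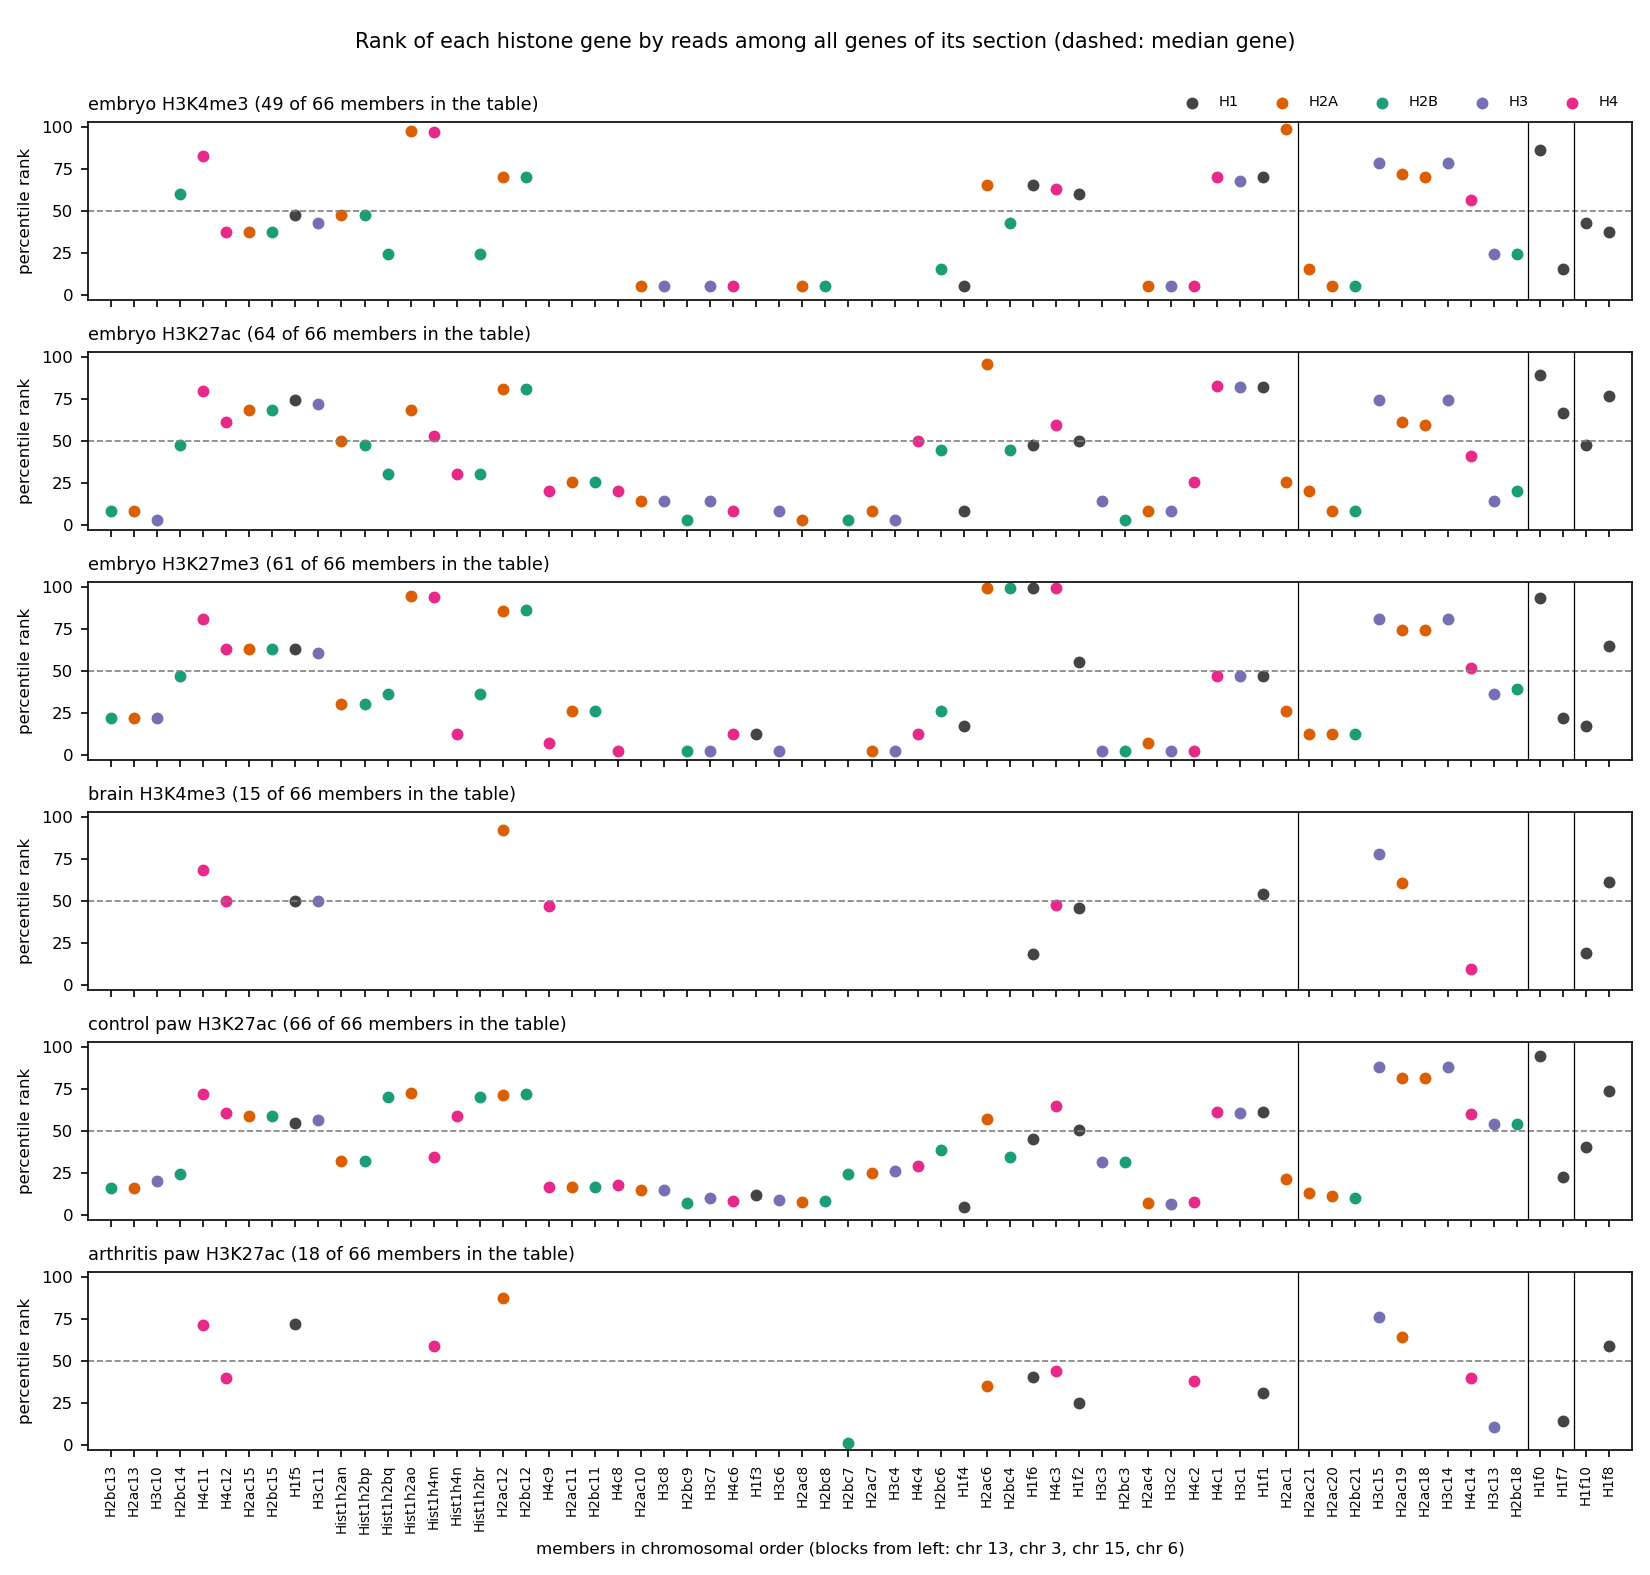
Percentile rank by reads (vertical axis, 0 to 100) of each histone gene among all genes of its section, with members in chromosomal order on the horizontal axis and colours for the histone class. In embryo H3K27me3, H2ac6, H2bc4, H1f6 and H4c3 stand together at ranks of 99.8 to 99.9, beside H1f4 at 17.2 and H1f2 at 55.5.

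Low members stood next to each other in the chromosome 13 cluster. In the control paw, the 13 neighbouring members from H4c9 to H2bc8 had 38 to 59 reads each, against a median of 142 over all genes of that section; this stretch was picked out after its values were seen. Among them are the H4 gene H4c9 with 57 reads, the H3 genes H3c8 with 53, H3c7 with 44 and H3c6 with 42, and the linker histone gene H1f3 with 48. Some neighbours in that stretch shared reads in the control paw, 96.6% for H2ac11 and H2bc11 and 97.6% for H2ac8 and H2bc8. The 13 values are therefore not all separate measurements. In embryo H3K27ac, the members of that stretch that had a row held 1 to 5 reads. Members outside it were higher. The H4 gene H4c11 had 258 reads in the control paw, 32 in embryo H3K27ac, 42 in embryo H3K27me3, 23 in embryo H3K4me3, 171 in the brain and 451 in the arthritis paw, with ranks of 68.4 to 83.0. On chromosome 3, the H3 gene H3c15 ranked at 74.8 to 88.1 in the 6 sections, with 494 reads in the control paw and 518 in the arthritis paw, whereas H2ac20 and H2bc21 had 47 and 45 reads in the control paw.

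Among the classes, H4 genes ranked highest in embryo H3K4me3, with a median rank of 59.6 over 8 genes, and H2B genes lowest, with 24.3 over 11. In embryo H3K27ac, H1 genes had a median rank of 66.7 over 9 genes and H3 genes 14.4 over 12. The H1 class includes H1f0, H1f6, H1f7, H1f8 and H1f10, which are not replication-dependent. In embryo H3K27me3 the medians ran from 22.03 for 11 H3 genes to 51.4 for 10 H1 genes. They ran from 23.0 for 16 H2A genes to 47.8 for 10 H1 genes in the control paw. The order of the classes thus changed from section to section, and since several members share the same reads, the class sizes overstate the number of separate measurements.

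Neighbouring histone genes shared reads. In the control paw, the reads of each pair of neighbours were compared spot by spot, as the sum of the smaller number over the sum of the larger. Of 62 neighbouring pairs, 16 shared at least 80% of their reads and 11 at least 95%. For 772 pairs on different chromosomes the median was 8.09% and the highest value 34.8%. With the 80% limit, which was chosen after the data were seen, the 66 members formed 50 groups, and 29 of them fell into 13 groups of 2 or 3.

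Several of these groups join genes of different histone classes. The H4 gene H4c1, the H3 gene H3c1 and the linker gene H1f1 had 191, 188 and 191 reads in the control paw, 36, 35 and 35 in embryo H3K27ac, 13, 13 and 13 in embryo H3K27me3 and 14, 13 and 14 in embryo H3K4me3. H4c12, H2ac15 and H2bc15 had 186, 177 and 177 in the control paw, and H2ac15 and H2bc15 had the same number in each spot. The divergent pair H2ac12 and H2bc12, whose shared upstream sequence is given above, had 254 and 256 reads in the control paw and shared 99.2% of them. In embryo H3K4me3 both had 14 reads, in embryo H3K27ac both had 33, and in embryo H3K27me3 they had 55 and 56.

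Equal reads were also found in members that are not direct neighbours. The H3 genes H3c15 and H3c14, which flank H2ac19 and H2ac18 on chromosome 3, had the same number in each spot of the control paw (494 reads each) and of the 3 embryo sections (19, 26 and 42 reads each). H2ac19 and H2ac18 had 352 reads each in the control paw, also equal in each spot. Hist1h2bq and Hist1h2br, H2B genes separated by 3 other members, had 243 reads each in the control paw, 3 in embryo H3K4me3, 6 in embryo H3K27ac and 9 in embryo H3K27me3, again equal in each spot. Such members cannot be told apart in these data, and whether reads were counted for overlapping or near-identical copies is not stated in the labels.

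The arthritis and brain tables seldom held more than 1 member of such a group. Of the 13 groups, the arthritis paw held 1 member in 7 and none in 6. The brain held 1 member in 4, more in 1 and none in 8. The pair held together in the brain was H1f5 and H3c11, with 121 reads each. In the arthritis paw H4c12, H1f5, H2ac12, H2bc7, H1f1, H2ac19 and H3c13 were listed without their partners.

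**Figure D2:**
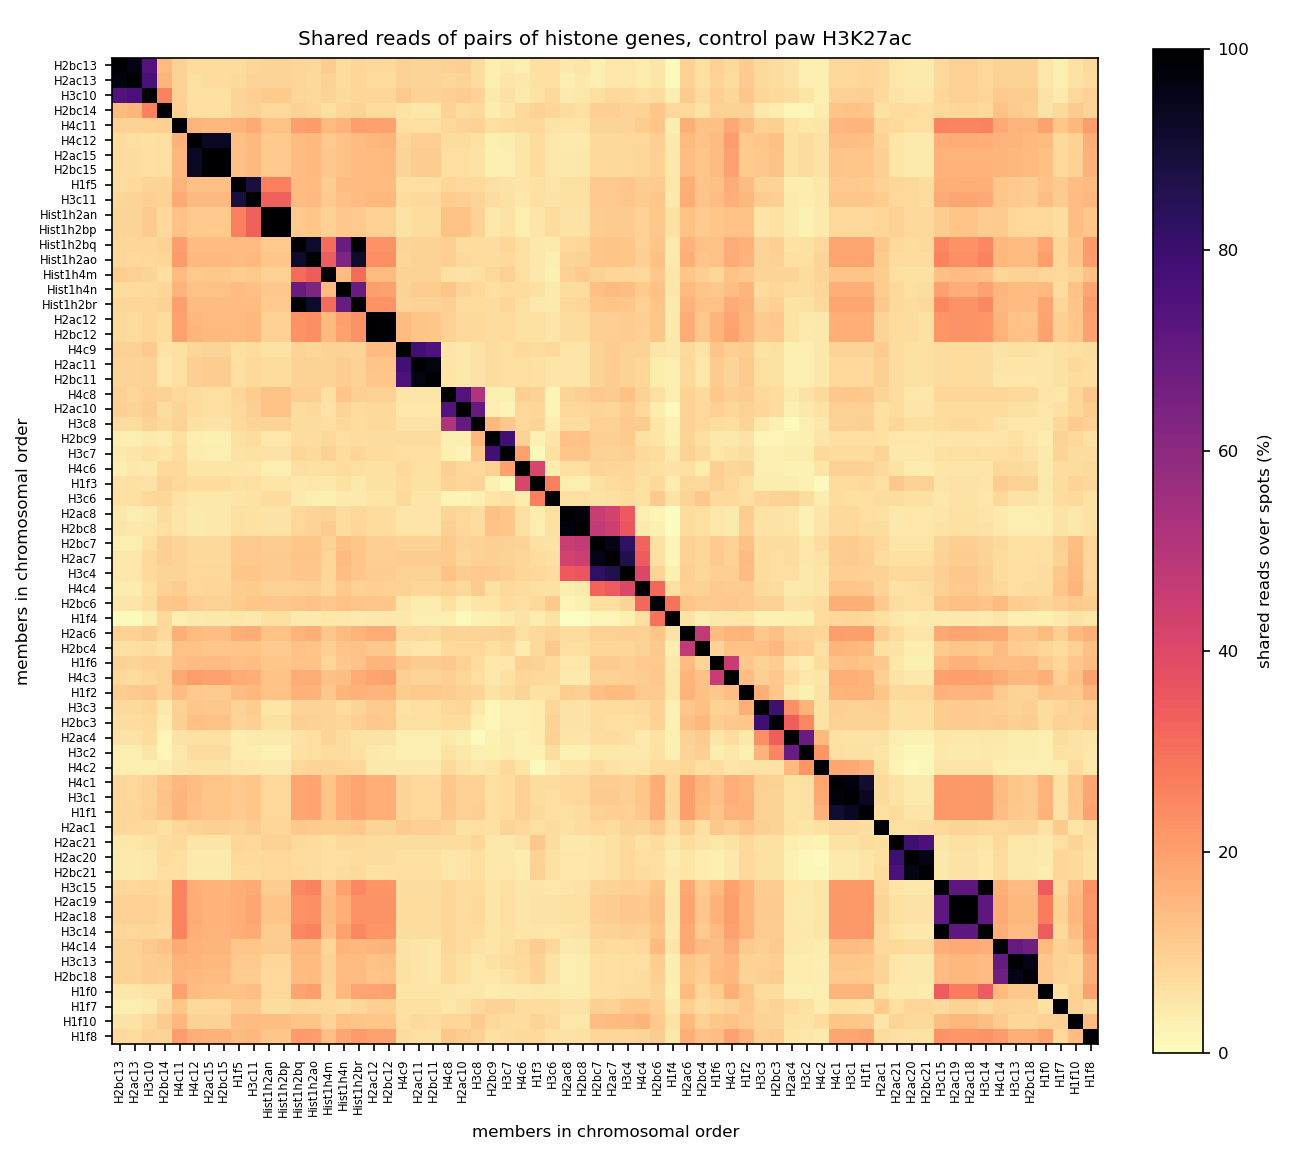
Shared reads in percent (colour, 0 to 100) between each pair of the 66 histone genes in the control paw, with members in chromosomal order on both axes. Dark blocks on the diagonal are neighbours with the same reads, such as H4c1, H3c1 and H1f1, and the dark corners away from the diagonal join H3c15 to H3c14 and Hist1h2bq to Hist1h2br.

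Embryo H3K27me3 was concentrated on 4 neighbouring members. H2ac6, an H2A gene, had 2005 reads, H2bc4, an H2B gene, 1997, H1f6, the testis linker histone H1t, 1353, and H4c3, an H4 gene, 1355. These sums are lower bounds, because high counts in single spots exceed what the tied ranks resolve. The 4 genes held 6710 of the 7698 reads of the 61 members. The members together held 1.03% of the section's reads, against 0.204% in embryo H3K4me3 and 0.156% in embryo H3K27ac. Reads that members share enter these totals for each of them, so the totals and percentages are not sums of separate reads. There were 20 genes with more reads than H2ac6, of 19046.

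The stretch ended sharply on both sides. H1f4, next to H2ac6, had 4 reads of embryo H3K27me3, and Hfe, the iron-regulating gene that follows H4c3, had 16. The nearest members after it had 17 (H1f2), 1 (H3c3) and 1 (H2bc3) reads. Within the stretch, H2ac6 and H2bc4 shared 99.6% of their reads and H1f6 and H4c3 99.1%, whereas H2bc4 and H1f6 shared 55.7%. So the 4 genes give 2 separate series of counts, and the members of each pair are not independent.

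In embryo H3K4me3 H2ac6, H2bc4, H1f6 and H4c3 had 12, 6, 12 and 11 reads. In embryo H3K27ac they had 107, 10, 11 and 16. Their reads in the control paw were 170, 95, 126 and 208. In the brain H1f6 had 63 and H4c3 115, and in the arthritis paw H2ac6 had 201, H1f6 226 and H4c3 243. H2ac6 was the 1 member above percentile rank 90 in embryo H3K27ac, with 107 reads (95% Poisson interval 87.7 to 129), where 10.1% of all genes lie. Its partner H2bc4 had 10 there, and the pair shared 7.34% of their reads, against 99.6% for H3K27me3.

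Across the embryo, the H3K27me3 reads of these genes were spread over nearly the whole section. H2ac6 had reads in 249 of 254 spots, with a median of 7 and a highest value of 28 per spot, and H1f6 in 244 spots, with a median of 4 and a highest value of 30. Per 100000 reads, H2ac6 had 267.7 in the deeper spots and 266.8 in the shallower ones. For H1f6 these values were 187 and 166. In the 10 spots with most reads of the gene lay 11.8% of the reads of H2ac6 and 15.7% of those of H1f6. The highest numbers per spot lay at low column numbers, but per 100000 reads H2ac6 had 255 in the lower and 283 in the higher columns, and H1f6 had 188 and 170.

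**Figure D3:**
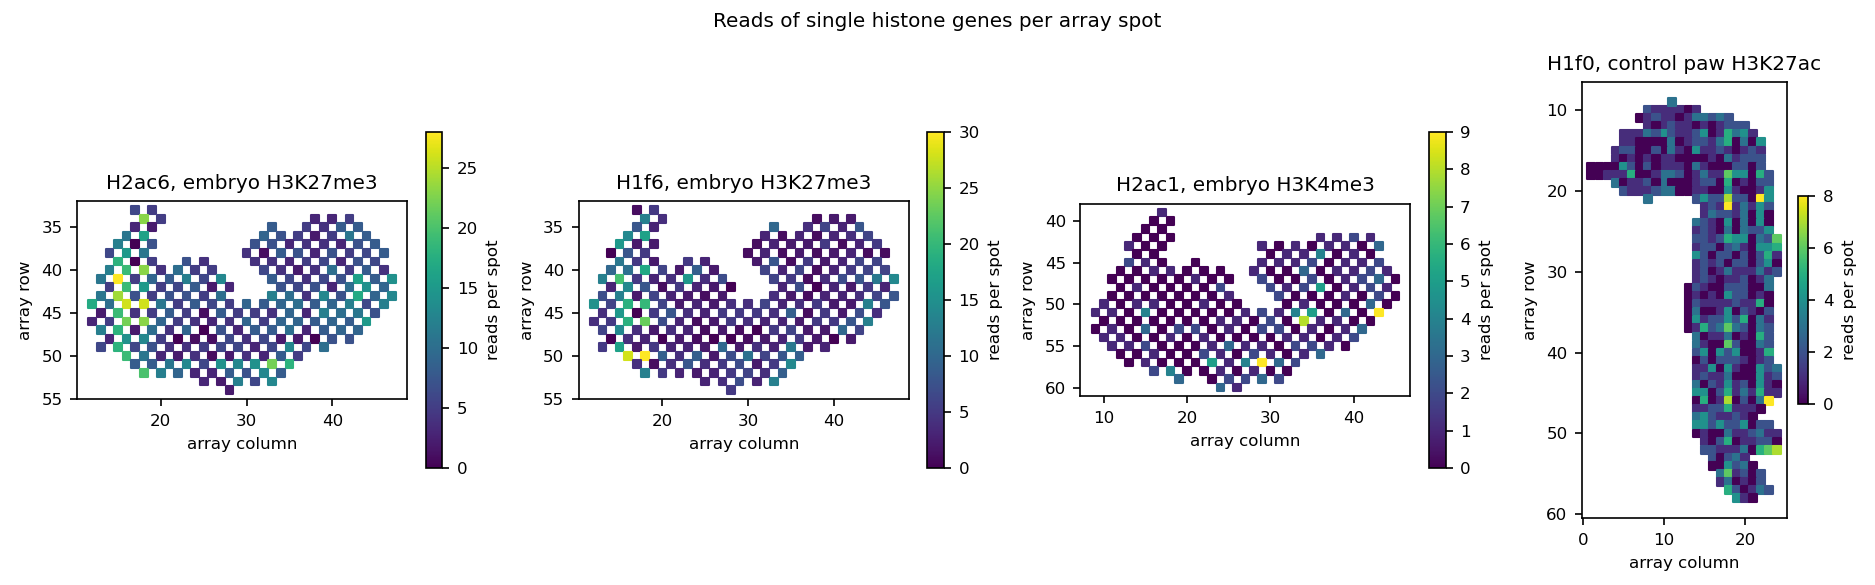
Recovered reads per array spot (colour, own scale in each panel) by array column and row, for H2ac6 and H1f6 in embryo H3K27me3, H2ac1 in embryo H3K4me3 and H1f0 in the control paw. H2ac6 has reads in 249 of 254 spots with a highest value of 28, H2ac1 in 126 of 248 with a highest value of 9, and H1f0 in 408 of 554 with a highest value of 8.

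Embryo H3K4me3 had its own leading members. H2ac1, an H2A gene at the far end of the cluster that is known for its testis form, had 233 reads (95% Poisson interval 204 to 265) in 126 of 248 spots, with a highest value of 9 per spot. It had 5 reads in embryo H3K27ac, 6 in embryo H3K27me3 and 66 in the control paw, and its neighbour H1f1 had 14 in embryo H3K4me3. Per 100000 reads, H2ac1 had 60.0 in the deeper spots of the H3K4me3 section and 51.6 in the shallower ones. Above percentile rank 90 in that section were 3 members, where 10.1% of all genes lie: H2ac1, Hist1h2ao and Hist1h4m.

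Hist1h2ao, an H2A gene, and its neighbour Hist1h4m, an H4 gene, were high in a pair of embryo sections. They had 129 and 122 reads of H3K4me3, 119 and 114 of H3K27me3, and 21 and 13 of H3K27ac. They shared 94.6% of their reads for H3K4me3 and 95.8% for H3K27me3. In the control paw they had 262 and 95 and shared 34.2%, and there Hist1h2ao went with Hist1h2bq, at 92.0% shared reads. In embryo H3K27me3 the members above percentile rank 90 were 7, where 9.91% of all genes lie: the 4 genes of the stretch, Hist1h2ao, Hist1h4m and H1f0.

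**Figure D4:**
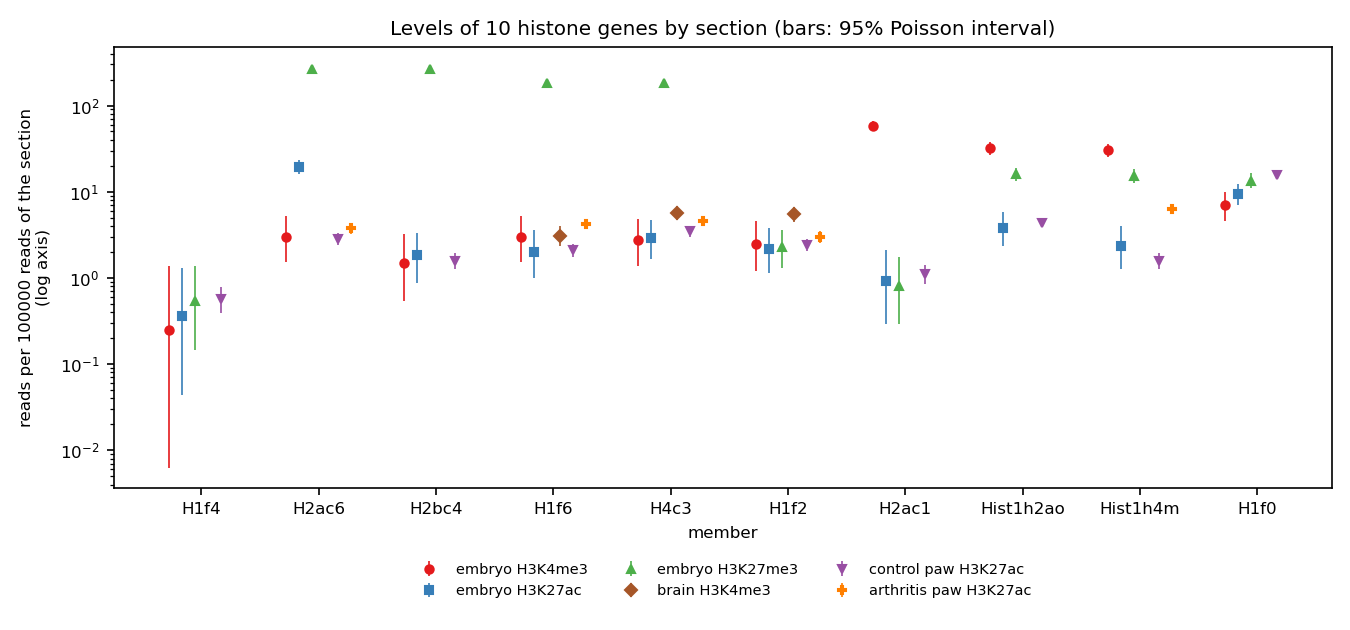
Reads per 100000 reads of the section (log axis) for 10 histone genes in the sections that list them, with 95% Poisson intervals that cover counting error only; the H3K27me3 values of H2ac6, H2bc4, H1f6 and H4c3 are lower bounds. H2ac6 reaches 267 in embryo H3K27me3 and 19.5 in embryo H3K27ac, and stays between 2.84 and 3.76 in embryo H3K4me3 and the paws, while H2ac1 reaches 57.7 in embryo H3K4me3.

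Levels were then set against each other between sections as the log2 ratio of reads relative to the section mean, over the genes held by both sections, with a pseudocount of 0.1 on that scale. The pseudocount understates the change of low genes. A member was counted as higher or lower where it lay 2-fold or more from the median ratio of all genes compared. The comparisons share sections, so their values are not independent of each other.

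For embryo H3K27me3 against H3K27ac, the median of 60 members was -0.10 and that of all 18653 genes -0.12. Of the members 6 were 2-fold higher, where 12.3% of all genes were, and 6 were 2-fold lower, where 11.6% were. The higher members were H2bc4 with a log2 ratio of at least 6.82, H1f6 with at least 6.16, H4c3 with at least 5.72, H2ac6 with at least 3.74, Hist1h4m with 2.44 and Hist1h2ao with 1.91. Toward H3K27ac lay H1f7, a spermatid linker histone, at -1.80 (5 against 20 reads), and the group of H4c1, H3c1 and H1f1 at -1.65, -1.61 and -1.61. The other two lower members had under 20 reads in both sections. With a pseudocount of 1, 6 members were higher and 0 lower, so the calls toward H3K27ac ended. Without the pseudocount, the ratio of Hist1h4m was 2.68 (95% exact binomial interval 1.85 to 3.63).

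For embryo H3K27me3 against H3K4me3, the median of 45 members was 0.26 and that of all genes 0.08. There were 4 members 2-fold higher, where 13.3% of all genes were, and 3 lower, where 11.1% were. The 4 higher ones were the stretch again, with log2 ratios of at least 7.04 for H2bc4, 6.26 for H2ac6, 5.80 for H4c3 and 5.69 for H1f6. H2ac1 was lowest at -5.41, which without the pseudocount is -6.16 (95% exact binomial interval -7.62 to -5.01). Hist1h2ao and Hist1h4m were the other two, at -0.97 and -0.95, just past 2-fold from the median. H1f8, the oocyte linker histone, was at 1.02, just inside. With a pseudocount of 1, 4 members were higher and 1 lower.

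For embryo H3K27ac against H3K4me3, the median of 48 members was 0.25 and that of all genes 0.20. There were 7 members 2-fold higher, where 12.9% of all genes were, and 3 lower, where 12.3% were. The lower ones were H2ac1 at -5.30, Hist1h4m at -3.38 and Hist1h2ao at -2.88. H2ac6 was highest at 2.52, with 107 against 12 reads, followed by H1f7 at 2.01 (20 against 2) and H1f8 at 1.67 (28 against 5). The pair H2ac15 and H2bc15, at 1.30, had 21 against 5 reads, the H3 gene H3c11 had 24 against 6 at 1.28, and H1f5 had 26 against 7 at 1.22. With a pseudocount of 1, 1 member was higher and 3 were lower.

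For brain against embryo H3K4me3, 14 members could be compared. Their median was 0.59 and that of all genes 0.66. There were 2 members 2-fold higher, where 7.23% of all genes were, and none lower, where 11.7% were. H2ac12 was highest at 1.81, with 368 reads in the brain (rank 92.2) against 14 in the embryo (rank 70.2). Its reads lay in 287 of 1200 brain spots. Without the pseudocount its ratio was 2.00 (95% exact binomial interval 1.24 to 2.89). H1f8 followed at 1.71, with 149 reads against 5, and H4c12 at 1.44, with 120 against 5. Lowest were H1f6 at -0.26, with 63 reads against 12, and H4c14 at -0.20, with 49 against 9. Both members called rest on embryo sums of 14 reads or fewer, and neither was 2-fold from the median with a pseudocount of 1.

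For arthritis against control paw H3K27ac, the 18 members had a median of 0.01 and all 11130 genes one of 0.11. There were 3 members 2-fold higher, where 9.84% of all genes were, and none lower, where 9.04% were. H4c2, an H4 gene, was highest at 1.46, with 214 reads in 189 of 943 spots of the arthritis paw and 40 reads in 39 of 554 spots of the control. Without the pseudocount its ratio was 2.17 (95% exact binomial interval 1.68 to 2.70). H2ac12 followed at 1.36, with 850 reads (rank 87.8) against 254 (rank 71.8), and 1.496 without the pseudocount (interval 1.29 to 1.70). Hist1h4m was at 1.25, with 334 against 95 reads. H1f5 was at 1.10, with 461 against 160, just inside 2-fold from the median. With a pseudocount of 1 no member was past 2-fold.

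The other members of the paws differed less. The lowest was the H3 gene H3c13 at -0.58, with 110 against 158 reads and a ratio of -0.77 without the pseudocount (95% exact binomial interval -1.13 to -0.41). H2bc7 was at -0.40 and H1f1 at -0.24. H3c15 was at -0.16, with 518 against 494 reads, and H4c3 at -0.02, with 243 against 208. H2ac6 was at -0.0039, with 201 against 170. The intervals of H3c15, H4c3 and H2ac6 included 0 and cover counting error alone. The paws differ in animal, section and table length as well as in disease, and these cannot be told apart. In the control paw the members had 193 reads per 100000 in columns 1, 5, 9 and so on, against 160 over the whole section, and in the arthritis paw 98.9 in both.

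For control paw against embryo H3K27ac, a comparison of fixed with frozen tissue, the median of 64 members was 0.24 and that of all genes 0.20. There were 7 members 2-fold higher, where 10.2% of all genes were, and 5 lower, where 11% were. H2ac6 was lowest at -2.56, with 170 reads in the paw and 107 in the embryo, and H1f7 was at -1.31. H3c13 was highest at 1.57, with 158 against 3 reads, followed by Hist1h2bq and Hist1h2br at 1.51 each, with 243 against 6 reads, and H2bc3 at 1.498, with 88 against 1. The embryo sums behind these high ratios are 6 reads or fewer, and with a pseudocount of 1 no member was higher and 1 was lower. The median turned to -0.01 with the deposited values, to -0.16 over the genes above the median level and to -0.03 in even columns.

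**Figure D5:**
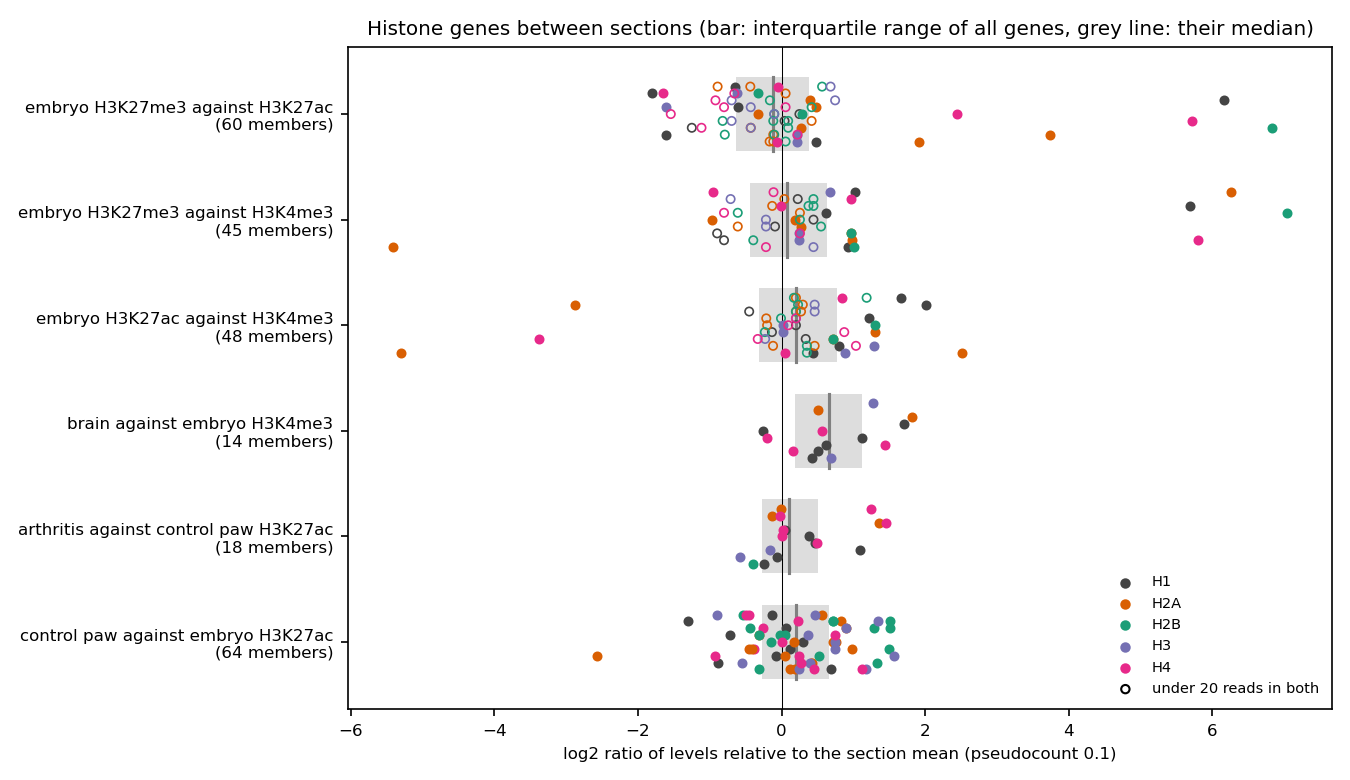
Log2 ratio of levels relative to the section mean (horizontal axis, pseudocount 0.1) for each histone gene in the 6 comparisons (vertical axis), with filled points for members of at least 20 reads in 1 of the sections and open points for the rest. Grey bars span the interquartile range of all genes compared, and the 4 members at 3.74 to 7.04 in the upper rows are H2ac6, H2bc4, H1f6 and H4c3.

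The linker histones that are not tied to replication were read apart. H1f0, the H1.0 gene of resting cells, had 28 reads in embryo H3K4me3, 52 in embryo H3K27ac, 101 in embryo H3K27me3 and 929 in the control paw, at ranks of 86.7, 89.5, 93.5 and 94.9. It was the member with most reads in the control paw, present in 408 of 554 spots, and it had no row in the brain or the arthritis paw. Its neighbour Gcat, a glycine metabolism gene, shared 82.1% to 94.2% of its reads in the embryo sections and 53.4% in the control paw. H1f8 ranked at 59.2 to 76.8 in the sections except embryo H3K4me3, where it ranked at 37.5. H1f10, of the H1X type, had 112 reads in the control paw and 64 in the brain, at ranks of 40.6 and 18.8. H1f7 had 69 reads in the control paw and 121 in the arthritis paw, at ranks of 22.8 and 13.9.

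By recovered reads, genes that serve histone mRNA had higher median ranks than the histone genes in each section. These ranks compare numbers of reads and not levels per base, and gene length was not taken into account. Of 16 genes for transcription and 3′ processing of histone mRNA, 9 lay above the median gene in embryo H3K4me3 and 10 in embryo H3K27ac. It was 12 in embryo H3K27me3 and 12 in the control paw. Of all genes, 48.5% to 49.9% lay above it in these sections. The median ranks of the 16 genes were 62.5 to 69.2. The median rank was 73.0 in the brain (8 with a row) and 53.7 in the arthritis paw (11 with a row). The position of the histone genes depends on the recovery in most sections. Slbp, the stem-loop binding protein, had 213 reads in the control paw and 281 in the arthritis paw, and Npat had 141 in the control paw. Lsm10, a protein of the U7 particle, had at least 1798 reads of embryo H3K27me3 in 249 spots, against 18 of H3K27ac and 5 of H3K4me3. These are log2 ratios of at least 5.98 and 7.08. Other genes of the list stood out in other sections. Cpsf2 had at least 10810 reads in the control paw against 134 in the arthritis paw. Ccne2 had 465 reads of embryo H3K27ac, against 31 of H3K27me3 and 10 of H3K4me3. Of the 16 genes, 3 were 2-fold higher and 2 lower in embryo H3K27me3 against H3K27ac, beside 12.3% and 11.6% of all genes. In arthritis against control paw 2 of 11 were higher and 2 lower, beside 9.84% and 9.04%.

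Replication-independent histones had a median rank of 47.9 in embryo H3K4me3, 66.7 in embryo H3K27ac, 44.8 in embryo H3K27me3 and 65.98 in the control paw. Of 8 compared between embryo H3K27me3 and H3K27ac, none was 2-fold higher and 2 were lower, beside 12.3% and 11.6% of all genes. Cenpa, the centromeric H3, was lowest at -2.58 (1 against 19 reads). Of 16 S-phase genes, 7 lay above the median gene in the control paw and 8 in embryo H3K4me3, beside 49.9% and 49.8% of all genes. In embryo H3K27ac and embryo H3K27me3 it was 5 each, beside 48.5% and 49.4%. The replication clamp Pcna had 93 reads in the control paw and 119 in the arthritis paw. Of 7 S-phase genes held by both paws, none was 2-fold higher or lower in arthritis, beside 9.84% and 9.04% of all genes. Of 8 histone chaperones, 3 lay above the median gene in the control paw, beside 49.9% of all genes.

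By recovered reads, genes of other kinds within the cluster had median ranks below the middle of each section's genes. The 14 other genes that lie between members include butyrophilins and phosphate transporters. Their median rank was 27.6 in the control paw and 30.2 in embryo H3K27ac (13 with a row), beside 32.3 and 35.7 for the members. It was 34.6 in embryo H3K4me3 and 28.7 in the arthritis paw (7 with a row), beside 42.9 and 40.2. In the brain it was 24.98 (8 with a row), where the members lay near the middle at 50.3. In embryo H3K27me3 it was 33.3 (13 with a row), above the 30.0 of the members. The low position of the members depends on the recovery in most sections, and the other genes were not ranked by the deposited values. H2bu2, H2aw, H3f4 and H4f16, histone genes that the name pattern leaves out, had 39, 56, 84 and 138 reads in the control paw, each below the median gene.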

How the data were processed

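The data are 6 tables of signal per gene and array spot, 1 per section, which the authors quantile-normalised before they deposited them. Bowtie2, featureCounts and MACS2 and the builds mm9 and hg19 are named per the submitters' processing notes, with no versions or roles. What interval was counted for a gene is not given in the sources used here.

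In each spot, ties in count had been broken by a fixed order of genes, so genes without reads can hold signal above 0. Reads were therefore recovered from the tied ranks, which gave 92.9% to 95.4% of the totals of the common list of values. The recovered sum lay within 1% of that list at 51.8% of ranks in embryo H3K4me3, 51.0% in embryo H3K27ac and 83.8% in embryo H3K27me3. In the brain and the paws it did so at 99.4% to 99.6% of ranks, so the recovery was less exact in the embryo. Counts shared by fewer than 5 genes are not resolved exactly, and the sum of any gene that owed over 10% of its reads to them was treated as a lower bound. A simulation was run for embryo H3K27me3 and the control paw only, from the recovered reads and with the same order of ties. It assumes what the recovery assumes, so it cannot show that the deposited values were made that way. Sums over spots were ranked within a section and, between sections, divided by the mean over the genes compared; log2 ratios used a pseudocount of 0.1. Intervals of 95% are exact (Poisson for a sum, Clopper-Pearson binomial for a ratio) and assume independent reads.

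Genes named were, per section, the 5 members with most and the 5 with fewest reads, per comparison the 10 with the largest ratios among those of at least 20 reads in 1 of the sections, all H3 and H4 members, and the members not tied to replication; others were named after their values were seen. Members, gene lists, the 80% limit for shared reads and the choice of recovered reads were made with earlier results of these data known. All 66 symbols were found in RefSeq (GRCm38.p6), 59 by symbol and 7 by an older name; since the files use another build, its coordinates are given only for its own promoter sequences. Alternatives covered the deposited values, the pseudocount, a filter on low genes, odd or even array columns and the share of spots with reads. A further one counted some members of equal sums, and some of unequal sums, once. Python 3.11.15, numpy 2.4.6, pandas 2.3.3 and scipy 1.17.1 were used.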

Additional observations from a re-analysis of the deposited data

How the results depend on the processing

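Of 120 alternative values over 18 results, 92 stayed within the binomial interval of a share, the order-statistic interval of a median over members or 1.5 times a count, and 28 moved. With the deposited values, the share of members above the median gene was 53.12% in embryo H3K27ac and 52.46% in embryo H3K27me3, and with each spot's factor removed, an alternative chosen after seeing the data, 51.56% and 52.46%; from recovered reads they were 34.4% and 36.1%. Counts of members past 2-fold moved with low reads. A pseudocount of 1 left 6 members (0 lower) for embryo H3K27me3 against H3K27ac, 4 (1 higher, 3 lower) for H3K27ac against H3K4me3 (median 0.063), 1, a lower one, for control paw against embryo and 0 for the brain and the arthritis paw. Genes above the median level gave a median of 0.19 for H3K27me3 against H3K27ac and -0.16 with 3 members for control paw against embryo. They gave 5 members for H3K27ac against H3K4me3, 1 for the brain and 1 for the arthritis paw. Odd columns gave 28 members for H3K27me3 against H3K27ac, 15 for H3K27me3 against H3K4me3, and 22 with a median of 0.58 for control paw against embryo. Even columns gave 13 for H3K27me3 against H3K4me3, 16 for H3K27ac against H3K4me3 and a median of -0.032 for control paw against embryo. Deposited values gave 18 members for H3K27me3 against H3K4me3 (12 with each spot's factor removed), 4 for the brain, and 19 with a median of -0.0058 for control paw against embryo. The cause was not tested. Reads per kb and a comparison with short genes were not run, since no annotation of the files' build was used here. No paired analysis was possible because each group has 1 section. Counting some members of equal sums once left 36 to 52 members in the embryo. It left 12 in the brain, 45 in the control paw and 18 in the arthritis paw. The embryo counts are higher than equal sums alone give, so some members of equal sums stayed apart. The counts for the brain and the control paw are lower than equal sums alone give. Members of unequal sums were therefore merged there too.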
